A study of Mus musculus with 8 samples.

Results

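The genes described here are the 6 GATA factors (Gata1 to Gata6), the 2 genes for their FOG cofactors (Zfpm1 and Zfpm2) and Trps1, 9 of 21631 mouse protein-coding genes. They were chosen by name, with earlier results of these data known. Every GATA2 peak inside them or within 10 kb, 100 kb and 500 kb of them was collected. Chromatin bound by the transcription factor GATA2 was precipitated from 3T3-L1 cells, a mouse fibroblast line committed to the fat lineage, and from C3H10T1/2 cells, a mouse embryonic fibroblast line able to enter the fat, bone, cartilage and muscle lineages. Both lines were used at passages 4 to 6 with no genotype or treatment named, and each had 2 libraries from the GATA2 antibody and 2 input libraries. About 100 µg of chromatin and 10 µg of antibody went into a precipitation, and DNA from separate precipitations was pooled before sequencing.

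The analysed data were 1 list of peaks per line, giving positions in the mouse build mm10, with 2445 peaks for 3T3-L1 and 1557 for C3H10T1/2. No height or score came with a peak, and how deeply the libraries were read is unknown. With 1 list per line there was no replicate value and no test between the lines. The values below are therefore positions, widths and counts. Counts of genes are set beside the share of all protein-coding genes with a peak in the same window, called the background. Peaks far from a gene may lie nearer to other genes, so the nearest protein-coding gene is named for each. Whether GATA2 acts on any of these genes was not measured.

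GATA factors are zinc finger proteins that bind DNA at sites built around the letters GATA. Gata1, Gata2 and Gata3 are known from blood cells, where GATA2 holds precursors back from maturing and is replaced at its own gene by GATA1 as red cells form. Gata4, Gata5 and Gata6 are known from the heart and the gut. In fat precursors GATA2 and GATA3 are known to hold back fat cell formation. The FOG proteins bind the amino-terminal zinc finger of GATA factors and recruit repressor complexes such as NuRD and CtBP. TRPS1 carries a GATA-type zinc finger of its own and acts as a repressor in cartilage, bone and hair.

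The sequences around the annotated starts of Gata2, from which distances of peak centres are given below, are shown first. That of Gata3, the GATA factor with the nearest peak, follows. Such short sequences cannot decide whether GATA2 acts on its own gene. They are RefSeq windows of build GRCm38.p6, the mm10 assembly, that run from 250 bases before a start to 50 bases after it. Capitals mark the letters GATA where A or T stands before them and A or G after them, sought on either strand.
Gata2, first start, chr6:88193641-88193940, plus strand: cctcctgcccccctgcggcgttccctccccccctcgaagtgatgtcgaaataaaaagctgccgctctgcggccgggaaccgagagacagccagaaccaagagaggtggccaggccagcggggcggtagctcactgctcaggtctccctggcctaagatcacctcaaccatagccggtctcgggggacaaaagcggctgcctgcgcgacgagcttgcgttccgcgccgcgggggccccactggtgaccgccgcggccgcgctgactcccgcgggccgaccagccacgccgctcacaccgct
Gata2, second start, chr6:88198414-88198713, plus strand: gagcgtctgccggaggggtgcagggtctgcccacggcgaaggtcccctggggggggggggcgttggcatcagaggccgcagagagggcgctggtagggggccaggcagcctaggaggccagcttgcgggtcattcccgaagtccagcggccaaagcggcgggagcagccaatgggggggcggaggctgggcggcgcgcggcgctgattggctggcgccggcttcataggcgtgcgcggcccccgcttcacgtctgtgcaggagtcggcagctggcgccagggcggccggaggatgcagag
Gata3, chr2:9878551-9878850, minus strand: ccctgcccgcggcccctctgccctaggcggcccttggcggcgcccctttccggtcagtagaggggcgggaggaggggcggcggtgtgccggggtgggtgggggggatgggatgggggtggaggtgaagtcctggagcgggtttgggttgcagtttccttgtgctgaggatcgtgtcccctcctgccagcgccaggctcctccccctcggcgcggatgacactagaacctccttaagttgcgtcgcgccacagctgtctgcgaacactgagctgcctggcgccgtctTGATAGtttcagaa

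Windows were found for 5 of the 9 genes (Gata1, Gata2, Gata3, Gata5 and Zfpm1), 6 windows in all. Only the Gata3 window held such a group of 6 letters, TGATAG, whose first base is base 37 counted from the start as base 1. Of all 32851 such windows in the table, 29.8% held at least 1. The 4 letters GATA on either strand were in 2 of the 6 windows, those of Gata3 and Gata1, against 57.9% of all windows. No peak of either list lay within 10 kb of any of these starts.

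Gata2 itself had no peak in its body or within 100 kb in either line. The gene lies on chromosome 6 from 88193891 to 88207032 on the plus strand, with annotated starts at 88193891 and 88198664. In 3T3-L1 there were 2 peaks within 500 kb. The first, at 88328544 to 88328740, had its centre 134.8 kb downstream of the first start and 130.0 kb downstream of the second. It lay inside Eefsec, which encodes the elongation factor for selenocysteine, and its edge was 121.5 kb beyond the end of Gata2. The other, at 87736907 to 87737077, had its centre 456.9 kb upstream of the first start. It lay inside Efcc1, and 20 protein-coding genes were nearer to it than Gata2. Neither peak overlapped a C3H10T1/2 peak.

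In C3H10T1/2 the nearest peak to Gata2 was 718.0 kb beyond the gene's higher coordinate, at 88925072 to 88925333, and on the upstream side the nearest was 3.3 Mb away. With both lists joined, no peak was listed from 87737078 to 88328543, a stretch of 591.5 kb. That stretch holds the whole gene, both starts and the upstream neighbour Rpn1, which lies 88.6 kb below Gata2. The enhancers of Gata2 known from blood cells lie in the gene and upstream of it, and an empty stretch says only that no peak was listed there at the authors' threshold. A gene without a peak within 100 kb in either list was common, at 80.4% of all protein-coding genes, and 5 of the 9 genes were of this kind: Gata1, Gata2, Gata4, Gata6 and Zfpm1.

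**Figure D1:**
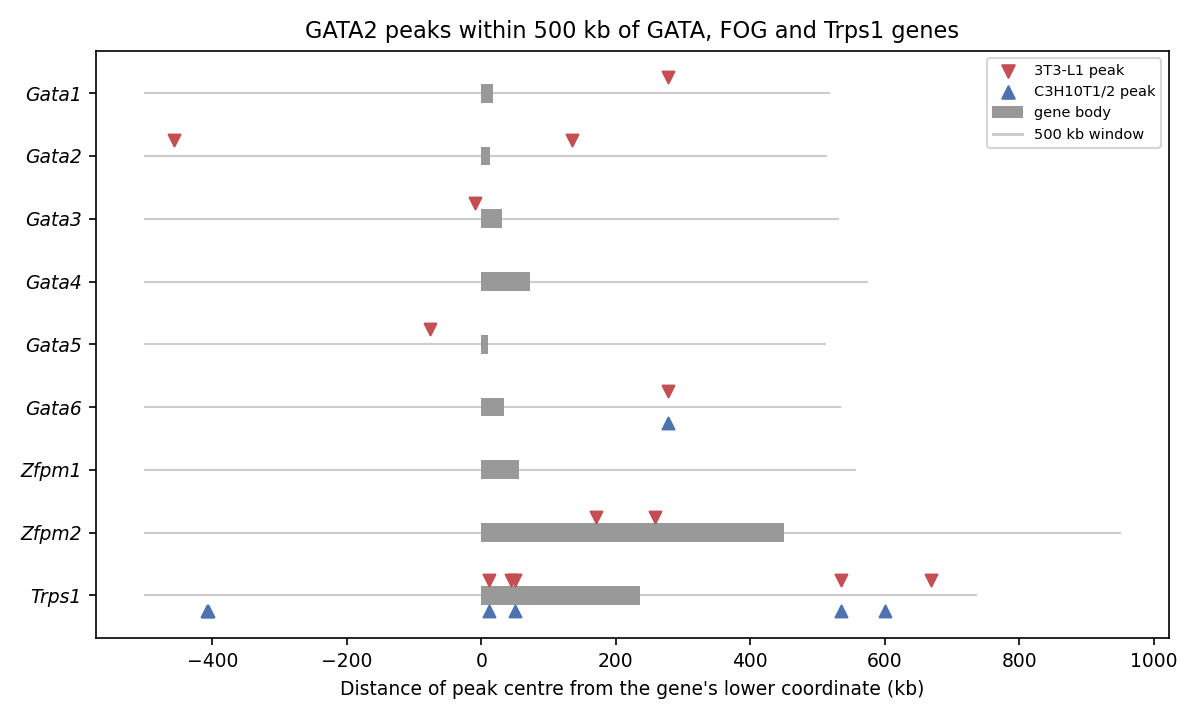
Peak centres of 3T3-L1 (red, above each line) and C3H10T1/2 (blue, below) by distance in kb from the lower coordinate of each gene. Grey bars are gene bodies and thin lines the windows of 500 kb. Trps1 carries 5 peaks of 3T3-L1 and 6 of C3H10T1/2, Gata4 and Zfpm1 carry none, and Gata2 has 2 distant peaks of 3T3-L1.

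Gata3, which encodes the GATA factor of T cells and, with GATA2, of fat precursors, had the nearest peak of the 6 GATA genes. The 3T3-L1 peak at 9847316 to 9847489 on chromosome 2 was 174 bp wide and lay 9.59 kb below the lower coordinate of the gene (9857078 to 9887953). Since Gata3 is on the minus strand, that is beyond its end, and the peak's centre was 31.2 kb downstream of the start at 9878600. Gata3 was its nearest gene of any kind, and no other protein-coding gene lay within 2460.7 kb on that side. Of all protein-coding genes, 3.89% had a 3T3-L1 peak as near. In C3H10T1/2 the nearest peak was 2055.9 kb away, and 79.0% of genes had one as near.

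The peaks near Gata1 and Gata5 lay closer to other genes. Gata1, which drives red cell and platelet precursor development, is on the X chromosome (7959260 to 7976663) among 37 protein-coding genes within 500 kb. Its 3T3-L1 peak at 8236766 to 8236846 lay 260.1 kb above it, with 14 protein-coding genes nearer. The nearest, Ftsj1, a gene for a tRNA methyltransferase, was 1.82 kb away. At 81 bp this peak was narrow, since 96.5% of the 3T3-L1 list was as wide or wider. Gata5, a factor of heart and gut, had a 3T3-L1 peak of 128 bp at 180249112 to 180249239 on chromosome 2, which was 75.8 kb below the gene (180325088 to 180335503). Rps21, a ribosomal protein gene, lay 8.14 kb from it, and Cables2, Lama5, Rbbp8nl and Adrm1 were also nearer than Gata5. The distance and the place of Gata5 among the genes with a peak within 100 kb rest on this narrow peak, since the nearest 3T3-L1 peak of at least the median width was 6194.4 kb away. In C3H10T1/2 the nearest peaks were 2758.1 kb from Gata1 and 12973.5 kb from Gata5, and 99.1% of genes had one as near as that of Gata5.

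Gata6, a factor of endoderm and heart, had the only site near a GATA factor gene that both lists held. On chromosome 18 it stretched from 11330156 to 11330431 in 3T3-L1. In C3H10T1/2 it stretched from 11330204 to 11330458. The overlap was 228 bp, and the centres were 37.5 bp apart. The site was 244.5 kb above the gene (11052510 to 11085636). No protein-coding gene lay nearer to it, and the nearest gene of any kind was the lncRNA gene Gm35918 at 69.2 kb. In 3T3-L1 it was among the wider peaks, at 276 bp, with 8.92% of the list as wide or wider. A peak as near was found for 27.3% of genes in 3T3-L1 and 23.7% in C3H10T1/2.

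Gata4, which works with FOG2 in the heart, and Zfpm1, which encodes FOG1, the cofactor of GATA1 in red cells and platelets, were without a peak within 500 kb in both lines. Of all protein-coding genes 43.6% had none. Gata4 (chromosome 14, 63198914 to 63271712) had its nearest peaks 1613.2 kb away in 3T3-L1 and 711.3 kb away in C3H10T1/2. The stretch without a listed peak around it ran to 3004.7 kb. Zfpm1 (chromosome 8, 122281856 to 122337862) had them at 1010.5 kb and 569.1 kb, and its peak-free stretch was 1623.3 kb. For both genes the C3H10T1/2 peak was the nearer one. For Zfpm1 that order was lost when narrower peaks than the median were left out, where the distances were 1010.5 kb in 3T3-L1 and 1010.6 kb in C3H10T1/2.

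**Figure D2:**
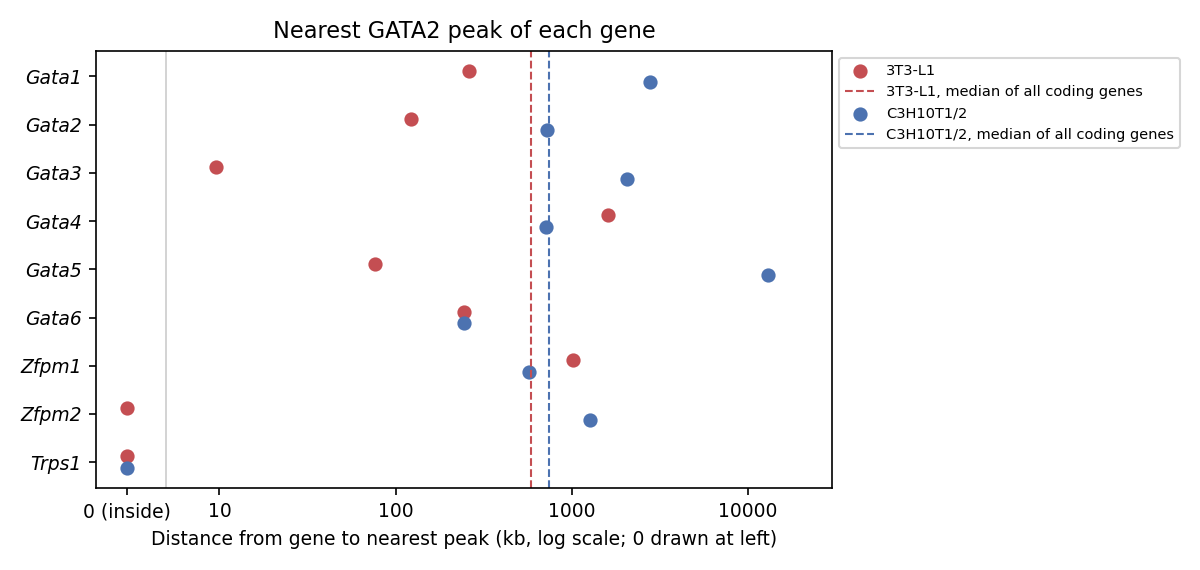
Distance in kb, on a log scale, from each gene to the nearest peak of each list, with peaks inside a gene drawn at the left. Dashed lines are the medians over all protein-coding genes, 588.3 kb for 3T3-L1 and 743.2 kb for C3H10T1/2. In 3T3-L1 all but Gata4 and Zfpm1 lie left of the median.

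Zfpm2, which encodes FOG2, a cofactor of GATA4 in the heart, held 2 peaks of 3T3-L1 inside it and none of C3H10T1/2. The gene spans 449.6 kb of chromosome 15 (40655042 to 41104592) and is longer than 98.7% of protein-coding genes. The peaks, at 40824908 to 40825011 and 40913414 to 40913622, had centres 169.9 kb and 258.5 kb from the lower coordinate, far from both boundaries. They were 104 bp and 209 bp wide. The nearest C3H10T1/2 peak was 1272.2 kb beyond the gene. Long genes held a peak more often. Of the 282 genes at least as long as Zfpm2, itself included, 26.2% contained a peak of 3T3-L1 and 22.3% one of C3H10T1/2.

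Trps1 had more peaks of each list than any other of the 9 genes. It accounted for 5 of the 13 peaks of 3T3-L1 within 500 kb of the 9 genes and for 6 of the 7 of C3H10T1/2, and it was the only gene of the 9 with a peak of both lists in the body, where 1.22% of all protein-coding genes had both. The gene lies on chromosome 15 from 50654757 to 50890631. The nearest protein-coding genes are Csmd3, 1862.2 kb below, and Eif3h, a translation factor gene, 895.9 kb above. Trps1 was therefore the nearest protein-coding gene of all 11 peaks. They spread over 1.08 Mb, from 50246353 to 51323643, and formed 9 separate stretches once overlapping peaks were joined.

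All 5 peaks in the body lay in the lower 20.9% of Trps1, with centres 11.1 kb to 49.4 kb from its lower coordinate. Lowest in the gene, the C3H10T1/2 peak (50665746 to 50665972) and the 3T3-L1 peak (50666036 to 50666176) did not overlap but were only 64 bp apart, with centres 247 bp apart. Next came a 3T3-L1 peak of 85 bp at 50698745 to 50698829, narrower than most, with no C3H10T1/2 peak nearer than 5.25 kb. Above it was a shared site, with the 3T3-L1 peak at 50704062 to 50704207 and the C3H10T1/2 peak at 50704079 to 50704233. These overlapped by 129 bp, and their centres were 21.5 bp apart. The promoter table holds no window for Trps1, so which boundary is the start is not given here.

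Outside the gene, 4 peaks lay above it and 2 below. A second shared site was 298.6 kb above Trps1, where the 3T3-L1 peak (51189203 to 51189362) lay wholly inside the wider C3H10T1/2 peak (51189146 to 51189417) and the centres differed by 1 bp. Farther up, each line had a peak of its own inside the lncRNA gene Gm19303, at 51255383 to 51255652 in C3H10T1/2 and at 51323384 to 51323643 in 3T3-L1. These were wide for their lists, at 270 bp and 260 bp. Below the gene, a pair of C3H10T1/2 peaks at 50246353 to 50246504 and 50248584 to 50248755 lay 408.3 kb and 406.0 kb away. The nearest 3T3-L1 peak to that pair was 196.9 kb off.

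**Figure D3:**
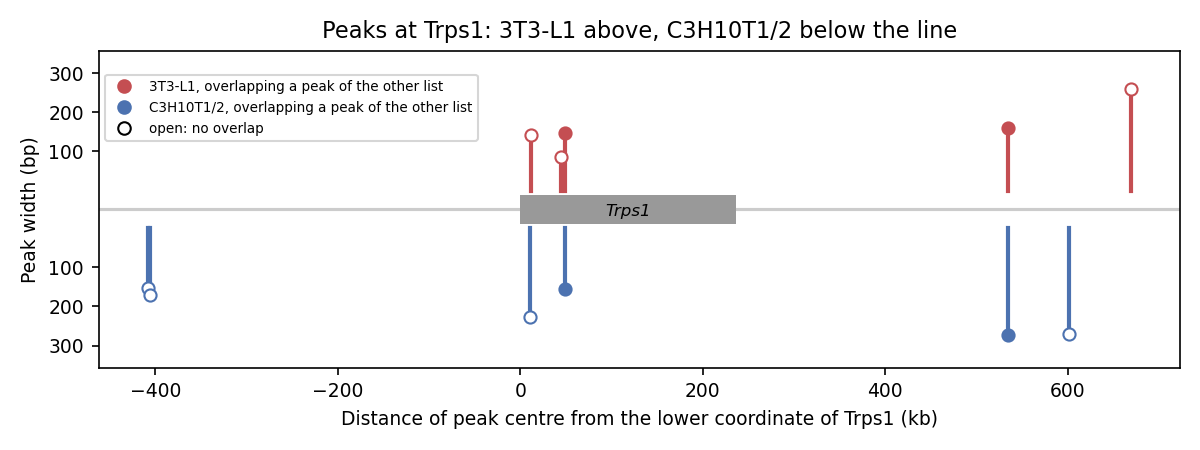
Peaks at Trps1 by distance in kb of the centre from the gene's lower coordinate (horizontal axis), with stem length giving peak width in bp. Stems for 3T3-L1 point up and for C3H10T1/2 down, and filled circles mark peaks that overlap one of the other list. Both lists hold the shared sites inside the gene and 298.6 kb above it.

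Set against all genes, Trps1 had many peaks in each list. Within 500 kb, 1.66% of protein-coding genes had 5 or more 3T3-L1 peaks and 0.726% had 6 or more C3H10T1/2 peaks, and 82 genes (0.379%) had at least as many as Trps1 in both. Per Mb of this window that was 4.05 peaks of 3T3-L1 and 4.85 of C3H10T1/2, against 0.968 in each list at Gata6. In the body, 13 genes (0.0601%) had at least 3 peaks of 3T3-L1 and 2 of C3H10T1/2. Of those 13, 11 were at least as long as Trps1. Among the 778 genes at least as long as Trps1, 22.8% contained a peak of 3T3-L1, 19.2% one of C3H10T1/2 and 10.0% both. All these counts and shares of genes include Trps1 itself.

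Counted over the 9 genes, more had a 3T3-L1 peak than a C3H10T1/2 peak in every window. In 3T3-L1, 2 of the 9 had a peak in the body, where 2.82% of all protein-coding genes did. Within 10 kb it was 3 (background 3.98%), within 100 kb 4 (13.9%) and within 500 kb 7 (45.3%). In C3H10T1/2, 1 of the 9 had a peak in the body (background 2.66%), within 10 kb (3.65%) and within 100 kb (12.1%), and 2 within 500 kb (39.2%). As shares of the 9, the 3T3-L1 counts were above the background in each window. Within 500 kb this held for the other gene lists described below as well. Their C3H10T1/2 shares there were 40.0% to 73.3%, also above the background, where the 9 genes had 22.2%. That difference was not tested. The C3H10T1/2 counts of the 9 genes were above the background in the body and within 10 kb, where 1 gene is 11.1%. They were near or under it at 100 kb and 500 kb. With 9 genes, a single gene decides each of these C3H10T1/2 shares up to 100 kb. The long bodies of Zfpm2 and Trps1 make up the body counts.

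**Figure D4:**
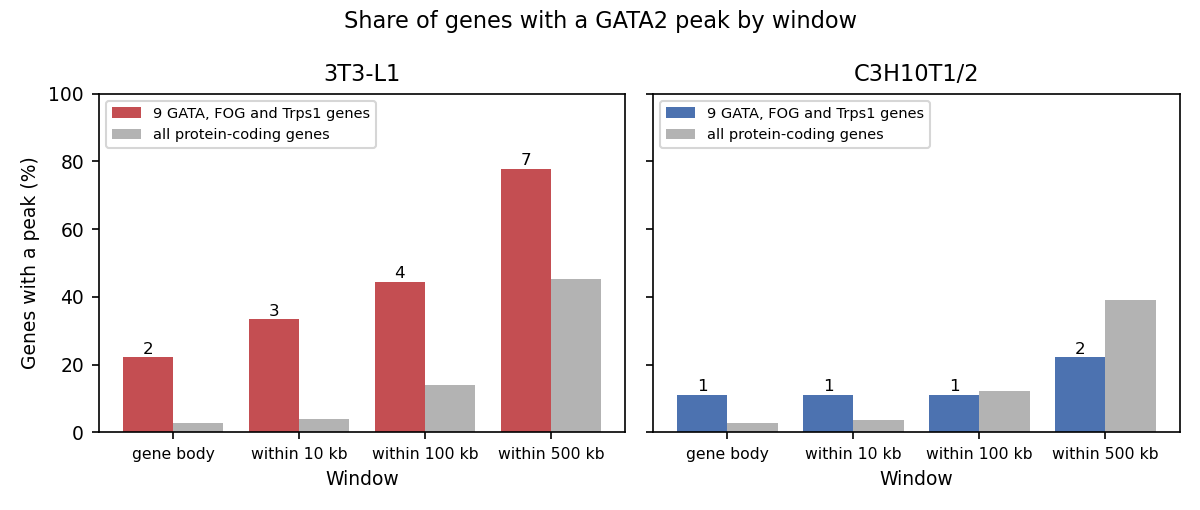
Percent of genes with a peak in the body or within 10 kb, 100 kb and 500 kb, for the 9 GATA, FOG and Trps1 genes (coloured bars, with the number of genes above) and for all 21631 protein-coding genes (grey bars). In 3T3-L1 the count rises from 2 to 7 genes, and in C3H10T1/2 from 1 to 2.

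Within 500 kb, 5 of the 9 genes (Gata1, Gata2, Gata3, Gata5 and Zfpm2) had a peak in the 3T3-L1 list alone, against 17.3% of all genes, and 0 in the C3H10T1/2 list alone, against 11.1%. Gata6 and Trps1 had one in both, against 28.0%. The 3T3-L1 list is the longer one. A cut to its 1557 widest peaks, chosen after seeing the data, left a peak in this window for 6 of the 9, against 33.5% of all genes. Such a cut does not make depth or peak threshold equal between the lists, and neither is known. Whether list length accounts for the 3T3-L1 counts was not tested. With 3T3-L1 peaks of at least the median width, a planned setting, the count of genes in this window was 5 of the 9 in place of 7. Within 100 kb that setting left 3 genes in place of 4. The share of all genes at that setting was not counted, and the C3H10T1/2 counts of genes did not change. Counting only peaks whose nearest protein-coding gene was one of the 9, it was 4 genes in 3T3-L1 (Gata3, Gata6, Zfpm2 and Trps1) and 2 in C3H10T1/2, where 6.11% and 5.03% of all genes were the nearest gene of a peak.

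Of the 13 peaks of 3T3-L1, 3 overlapped a C3H10T1/2 peak (23.1%, 95% exact Clopper-Pearson interval 5.04 to 53.8, covering counting error only). In the whole list the share was 22.4%. Of the 7 peaks of C3H10T1/2, 3 overlapped a 3T3-L1 peak (42.9%, interval 9.9 to 81.6), where the whole list had 34.7%. All 3 shared sites were those at Gata6 and Trps1. The intervals treat peaks as independent, though 5 of the 13 and 6 of the 7 lay at Trps1 alone. The median width was 160 bp in 3T3-L1 and 227 bp in C3H10T1/2, against 144 bp and 184 bp in the whole lists. None of these peaks lay in a dense block of peaks, a run of at least 8 peaks with gaps of at most 20000 bp. Such blocks held 454 peaks of the whole 3T3-L1 list and 20 of the whole C3H10T1/2 list. The share of shared peaks outside blocks was not counted.

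The genes whose products work with GATA factors were counted in the same way. Of 15 genes for NuRD subunits and CtBP, the repressors that FOG proteins recruit, 2 held a peak of 3T3-L1 or had one within 10 kb, and for C3H10T1/2 it was also 2, with backgrounds of 3.98% and 3.65%. Chd3, a chromatin remodelling subunit of NuRD, on chromosome 11, had a shared peak inside it (69366534 to 69366825 for 3T3-L1, 69366526 to 69366833 for C3H10T1/2). Ctbp2, a corepressor gene, had one of 3T3-L1 alone (133012847 to 133012954, chromosome 7), and Rbbp4, a histone-binding subunit of NuRD, one of C3H10T1/2 alone (129324846 to 129324993, chromosome 4). Ctbp2 is longer than 92.5% of protein-coding genes, Chd3 than 61.6% and Rbbp4 than 63.6%.

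Of 17 genes for partners and coactivators of GATA factors, 3 had a peak in the body in each line, against backgrounds of 2.82% and 2.66%. They were Tcf3, Tcf4 and Runx1 in both. The Tcf3 peaks, on chromosome 10, were shared and crossed the gene's higher coordinate, 80433976. They ran from 80433809 to 80434166 in 3T3-L1 and from 80433690 to 80434179 in C3H10T1/2. Tcf3 is longer than 59.5% of protein-coding genes. Tcf4 and Runx1 are long genes, longer than 97.9% and 96.1% of protein-coding genes, and long genes held peaks more often. Tcf3 and Tcf4 encode E proteins, which pair with TAL1 in complexes with GATA factors, and Runx1 encodes a blood stem cell factor. Runx1 had 1 peak of 3T3-L1 and 4 of C3H10T1/2, of which the site at 92710271 to 92710369 in 3T3-L1 was shared. The peaks in Tcf4 (chromosome 18, 69535395 to 69535644 for 3T3-L1 and 69381955 to 69382113 for the other line) did not overlap. Tal1, Lyl1, Lmo2, Lmo4, Ldb1, Ldb2, Tcf12, Fli1, Erg, Spi1, Klf1, Ep300, Crebbp and Med1 had none there. Of 8 other genes with a GATA-type zinc finger, Rere alone, a corepressor gene, had a C3H10T1/2 peak in its body (150396864 to 150397131, chromosome 4). None had a 3T3-L1 peak within 10 kb. The backgrounds were 2.66% and 3.98%. Gatad2a, Gatad2b, Mta1, Mta2 and Mta3 are in this list and also among the NuRD genes counted above. Rere too is longer than 97.9% of genes.

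For comparison with families of related function, 2 of the 4 Runx family genes (the Runx genes and Cbfb) had a peak in the body or within 10 kb in each line. Of 10 genes of the Pparg, Cebp and Ebf families, which govern fat cell formation, 5 had one in 3T3-L1 and 1 in C3H10T1/2. Runx1, Runx2 and Ebf1, each with a peak in both lines, are long genes, and long genes held peaks more often. Runx1 is also among the partners counted above. The corresponding counts for the 9 GATA, FOG and Trps1 genes were 3 and 1, and the backgrounds were 3.98% and 3.65% for all these lists. These differences between small lists were not tested.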

How the data were processed

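GATA2 ChIP-seq was done in 2 cell lines, with 8 libraries in 4 groups of 2, and 1 deposited peak list per line was analysed. Per the labels' protocols, DNA of separate precipitations was pooled. The authors deposited chromosome, start and end of each peak, so the values are positions. The submitters' processing notes name mm10, CASAVA 1.8, Bowtie2, SAMtools, bedtools and MACS2. How libraries and input were combined and the peak threshold are not given in the sources used here, and both set which weak peaks are listed.

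Positions are counted from 1. Genes were the 21631 protein-coding genes of the RefSeq table of GRCm38.p6 on chromosomes 1 to 19 and X. Distances run from the nearest edge of a peak to the gene, with 0 for an overlap, and each window includes the body. A peak is shared where 1 bp or more overlaps a peak of the other line. Counting was done in Python 3.11.15 with pandas 2.3.3 and scipy 1.17.1 and was tested on simulated peaks. All 9 genes are named. Of other lists, genes with a peak in the body or within 10 kb are named, and for partners of GATA factors also those without. The genes and lists were chosen with earlier results of these data known. Peak sequences were not used here.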

Additional observations from a re-analysis of the deposited data

How the results depend on the processing

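No paired analysis was possible because each line was given as 1 list, so leaving out a library was not possible either. With peaks of at least the median width of a list alone, the 3T3-L1 peaks counted fell from 5 to 2 in the gene bodies, from 6 to 3 within 10 kb, from 7 to 3 within 100 kb and from 13 to 8 within 500 kb. The C3H10T1/2 peaks fell from 2 to 1 in the bodies, within 10 kb and within 100 kb, and from 7 to 4 within 500 kb. The setting itself removes narrow peaks. With the 1557 widest 3T3-L1 peaks, chosen after seeing the data, 3 peaks were left in the bodies. The number of genes with a 3T3-L1 peak within 500 kb was 4 in place of 7 when each peak was given to its nearest gene. Leaving out dense blocks (runs of at least 8 peaks with gaps of at most 20000 bp) or using peak centres moved none of these counts by more than 1.5 times, nor the distances to Gata2. Shared peaks numbered 3 in each list with an overlap of 50% of both peaks, 4 with centres within 1 kb and 2 among the wider peaks. Over all 49554 genes of the table, the background within 500 kb was 43.1% in 3T3-L1 and 37.0% in C3H10T1/2. Wider peaks alone moved 5 of 18 distances to the nearest peak: in 3T3-L1 to 524.1 kb for Gata1, 2220.5 kb for Gata4 and 6194.4 kb for Gata5, and in C3H10T1/2 to 2784.2 kb for Gata3 and 1010.6 kb for Zfpm1. The unknown depth limits what the absence of a peak can show.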
